A study of Sus scrofa with 15 samples.

Results

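The genes of the insulin-like growth factor (IGF) system were followed in pig muscle: the ligands IGF1 and IGF2, the receptors IGF1R and IGF2R, and the binding proteins IGFBP2, IGFBP3, IGFBP4, IGFBP5 and IGFBP6. Their probes were found by the gene name or description in the scanner files, which gave 27 probes on the array. A probe was kept if 7 or more of the 15 arrays showed it well above background, which left 25 of them, and 31989 of 43603 over the whole array. All 9 genes, of 4169 named genes measured, had at least 1 kept probe; the 2 probes left out belong to IGF1R. RNA came from Longissimus muscle, the long muscle of the back, of pigs at 20 kg body weight. The low_RFI group (strain RFIneg, 7 pigs) and the high_RFI group (strain RFIpl, 8 pigs) were both fed ad libitum, and each pig had an array of its own. The strains differ in residual feed intake (RFI), the part of feed intake that growth and maintenance do not account for, and low RFI means better feed efficiency. Age, sex and litter are not given in the labels, and no agent or allele is named for either group.

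IGF1 and IGF2 are secreted peptides that promote growth and differentiation of muscle cells through IGF1R, a tyrosine kinase receptor. IGF2R, which is also the mannose 6-phosphate receptor, takes up IGF2 and sends it to lysosomes. The binding proteins hold the ligands in tissue and blood, where they can limit or prolong their action, and much of the IGF1 that acts in muscle is made there. IGF2 in pigs is known for a regulatory variant that raises its expression in muscle after birth; genotypes at it were not analysed here. Of the binding protein genes, IGFBP2 and IGFBP5 are neighbours in the RefSeq annotation of the pig assembly (Sscrofa11.1), as are IGFBP3 and IGFBP1, and IGF2 lies beside INS, the insulin gene.

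Each probe is a 60-base oligonucleotide, and the sequences that matter most for reading the results are shown here as the scanner files give them. The first set holds 2 overlapping IGF2 probes, another IGF2 probe that overlaps neither and the single IGFBP5 probe, whose levels went together across pigs. Capitals mark the 38 bases that the first 2 have in common and, in the IGFBP5 probe, the 17 bases that occur in 1 probe without a gene name.
IGF2 A_72_P537638: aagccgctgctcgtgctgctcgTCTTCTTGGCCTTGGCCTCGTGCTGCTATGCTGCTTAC
IGF2 A_72_P537644: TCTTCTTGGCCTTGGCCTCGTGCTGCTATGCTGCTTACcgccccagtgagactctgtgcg
IGF2 A_72_P544532: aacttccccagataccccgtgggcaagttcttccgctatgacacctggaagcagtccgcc
IGFBP5 A_72_P146706: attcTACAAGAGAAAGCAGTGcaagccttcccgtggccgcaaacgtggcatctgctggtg
No stretch of 14 or more bases was common to an IGF2 probe and the IGFBP5 probe. The second set holds IGF2R probes, 3 that share sequence with each other and 1 that shares sequence with another gene's probe. Capitals mark the longest stretch each has in common with another probe, which is 28 bases in the first line and 57 bases in the next 2. In the last line they mark 16 bases that also occur in a probe for CPT1B, the muscle enzyme that carries fatty acids into mitochondria.
IGF2R A_72_P445023: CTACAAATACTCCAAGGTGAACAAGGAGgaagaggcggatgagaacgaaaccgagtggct
IGF2R A_72_P490952: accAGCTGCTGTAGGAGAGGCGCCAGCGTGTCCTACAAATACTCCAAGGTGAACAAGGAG
IGF2R A_72_P245722: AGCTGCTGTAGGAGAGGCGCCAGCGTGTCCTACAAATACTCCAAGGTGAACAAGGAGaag
IGF2R A_72_P704524: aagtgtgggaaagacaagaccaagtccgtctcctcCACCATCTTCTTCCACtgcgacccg

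Values are given below as levels: log2 of the processed signal minus the 75th percentile of the array's non-control probes. A level of 0 is therefore the array's 75th percentile, and a difference of 1 is a doubling. Probes differ in how well they bind, so no probe's level is set against another's and the genes are not ranked by abundance. On each array 61.7% to 79.5% of these probes exceeded background clearly, and no spot was saturated. Markers of myofibres, ACTA1, CKM, MYH1, MYH4, MYH7, MB, TNNT3 and MYLPF, were well above background on all 15 arrays, as the labelled tissue calls for. Pig numbers in the array names form 2 runs, 1 to 8 (n = 8) and 55 to 62 (n = 7), and the arrays sit on 4 slides; each run and each slide holds both lines. What the runs stand for is not stated in the labels. Pigs 55 to 62 and pigs 1 to 8 differed past the adjusted threshold of 0.05 in 162 of 4169 genes (3.89%, limma with line in the model), and in none of the 9 IGF genes (adjusted p from 0.44 to 0.93; 0 of 9 under 0.05 unadjusted, where 22.6% of all genes were). In whole muscle, fewer cells of a type and less RNA per cell cannot be told apart.

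No IGF gene passed the line comparison, and the differences were small. For each gene the kept probe of highest mean level was tested with limma over all 4169 named genes, with the Benjamini-Hochberg adjustment and a call at an adjusted p under 0.05. Of the 9 genes 0 were called, against 1 of 4169 genes (0.024%) in the whole table and 0 of 31989 probes (0%). At limma's unadjusted p under 0.05 stood 1 of the 9 genes, IGF1, where 7.05% of all genes did, and 1 of the 25 probes, where 6.64% of all probes did. Point estimates were above 0 (higher in low_RFI) for 6 of the 9 genes and below 0 for 3, with a median log2 difference of 0.078 against 0.015 over all genes tested. Normexp background correction, an alternative, adds an offset of 50 intensity units to every signal. With it the sign turned for 4 of the 9 genes: IGF1R and IGFBP3 went below 0, and IGF2R and IGFBP2 above 0. No IGF gene separated the lines without overlap, which 0.168% of genes did.

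**Figure D1:**
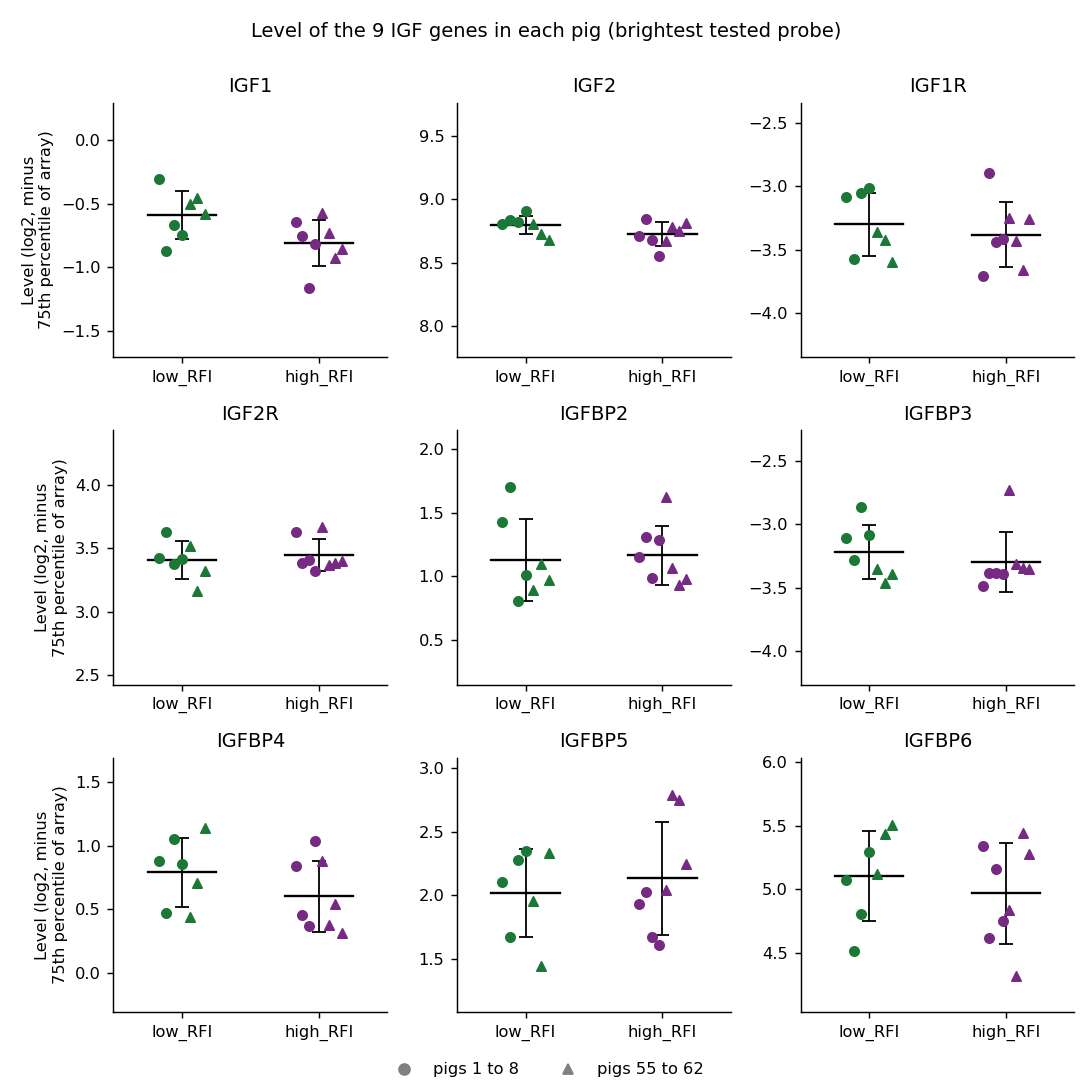
Level (log2, less the 75th percentile of the array) of the kept probe of highest mean level for each of the 9 genes, with low_RFI pigs (n = 7) at left and high_RFI pigs (n = 8) at right of each panel. Each point is 1 pig, circles for pigs 1 to 8 and triangles for pigs 55 to 62; the line and bars are the mean and SD, and every panel spans 2 log2 units. The lines overlap in all 9 genes. By these probes IGF2 is the tightest and IGFBP5 the most spread, and the other IGF2 probes spread more than the one shown.

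IGF1 showed the difference of smallest p among the members. Its level was between -0.87 and -0.30 in low_RFI pigs, with a median of -0.58, and between -1.17 and -0.57 in high_RFI pigs, with a median of -0.79. The groups overlapped, and the low_RFI pig was the higher in 44 of the 56 pairings of a low_RFI with a high_RFI pig. The log2 difference was 0.22 ± 0.10 (SE), a fold of 1.16 with a 95% interval of 1.003 to 1.35, and it did not pass over all genes (adjusted p = 0.697, limma). Its probe A_72_P185381 gave a log2 difference of 0.24 ± 0.17 (SE). The dim probe A_72_P306168 was well above background in 5 of 7 low_RFI pigs and 2 of 8 high_RFI pigs. It thus passed the filter mainly through low_RFI, and its difference of 0.44 ± 0.23 (-0.17 with normexp correction) is given as a description only. The difference of the tested probe was 0.20 within pigs 1 to 8 and 0.26 within pigs 55 to 62, and it was above 0 on all 4 slides (0.026 to 0.36). For A_72_P185381 the difference ran from -0.17 on slide 1 to 0.68 on slide 2. The 3 IGF1 probes shared little of their pig-to-pig variation, with Pearson r of 0.083 to 0.32 after line means were removed. Which of them follows the gene's transcript best was not tested.

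The brightest IGF2 probe gave a very strong and even signal. This probe, A_72_P376458, read from 136378 to 183791 intensity units over the 15 pigs. The level was 8.68 to 8.91 in low_RFI pigs, with a median of 8.80, and 8.55 to 8.84 in high_RFI pigs, with a median of 8.73. The ranges overlapped in part, with the low_RFI pig higher in 41 of the 56 pairings, and the log2 difference was 0.073 ± 0.064 (SE), a fold interval of 0.958 to 1.15 (adjusted p = 0.915, limma). The other 5 IGF2 probes differed by 0.17 to 0.25 (log2), all higher on average in low_RFI and none past the threshold (adjusted p from 0.79 to 0.91 over probes, limma).

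The IGF2 probes did not vary alike between pigs. The within-line SD of the brightest probe was 0.084 log2 units, and only 0.5% of the kept probes had a smaller one. The 101 probes within 0.25 of its level had a median SD of 0.134, against 0.279 over all kept probes. The other 5 IGF2 probes had SDs of 0.22 to 0.30, and they correlated with each other across pigs at r of 0.84 to 0.99 (line means removed). With the brightest probe they correlated at 0.34 to 0.59. The overlapping pair A_72_P537638 and A_72_P537644, shown above, had an r of 0.946, and the IGF2 probe printed below them, A_72_P544532, reached 0.988 with A_72_P537644. With normexp background correction in place of the scanner's processed signal, the SD of the brightest probe was 0.187.

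**Figure D2:**
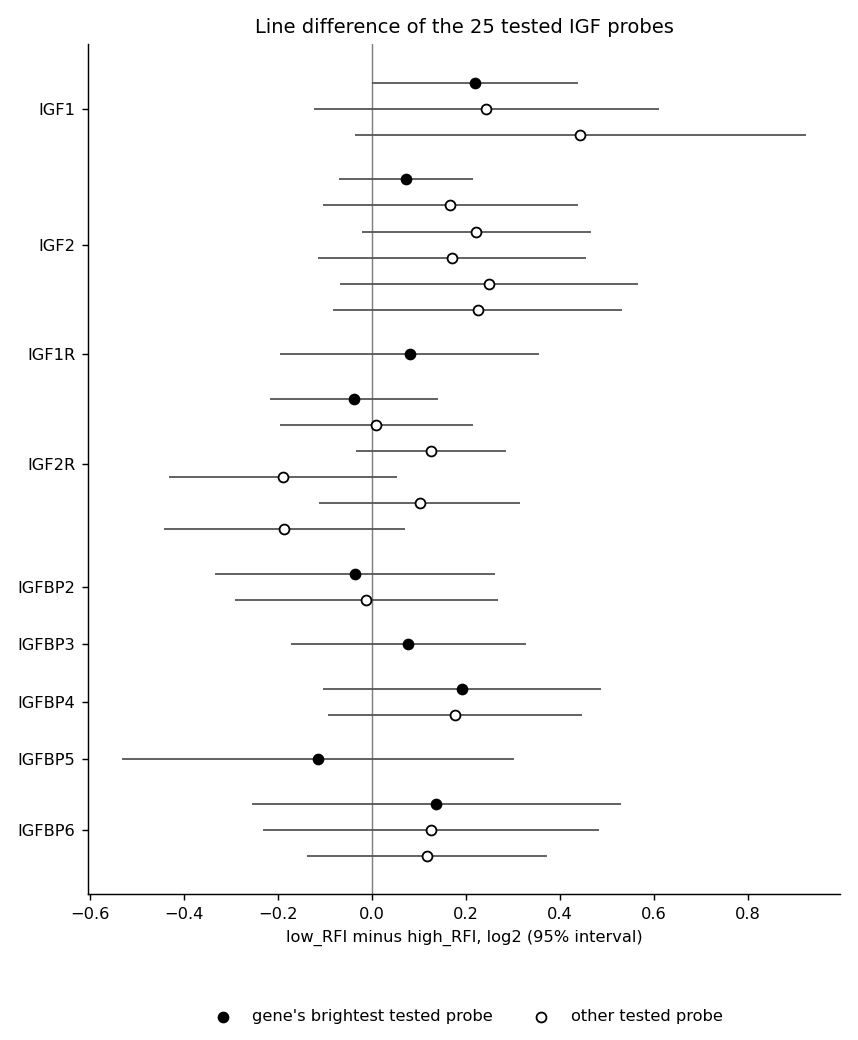
Log2 difference, low_RFI minus high_RFI, of the 25 kept probes with 95% limma intervals. Filled points are the probe of highest mean level of each gene and open points the others, brightest first. All 6 IGF2, 2 IGFBP4 and 3 IGFBP6 probes lie right of 0, as do the 3 IGF1 probes, 1 of which passed the filter mainly through low_RFI, the 6 IGF2R probes lie 3 on each side (with normexp correction 1 IGF1 and 1 IGFBP4 probe turn, and 5 IGF2R probes lie left), and 0 of 25 passed the adjusted threshold.

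Among the receptors, IGF1R was faint and even between lines. Its 1 kept probe had a level of -3.59 to -3.02 in low_RFI pigs, with a median of -3.36, and of -3.70 to -2.89 in high_RFI pigs, with a median of -3.42. The groups overlapped over nearly their whole range, and the log2 difference was 0.081 ± 0.129 (SE), with a fold interval of 0.875 to 1.28. Of its 2 probes left out, 1 was well above background in 2 of 7 low_RFI and 2 of 8 high_RFI pigs, and the other on no array.

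IGF2R also did not separate the lines. The tested probe, A_72_P513762, ran from 3.16 to 3.63 in low_RFI pigs, with a median of 3.41, and from 3.32 to 3.66 in high_RFI pigs, with a median of 3.39. These ranges overlapped, and the log2 difference was -0.039 ± 0.082 (SE). Its 6 probes gave differences of -0.19 to 0.13 (log2), with pairwise r across pigs from -0.41 to 0.67. Even the 2 probes that share 57 of 60 bases, A_72_P490952 and A_72_P245722, had an r of 0.309 and point estimates of 0.10 and -0.19. Their processed signals were 16.1 to 30.3 and 14.9 to 31.3 intensity units. Probe A_72_P704524, which shares 16 bases with the CPT1B probe, correlated with that probe at 0.763 and with the other IGF2R probes at -0.41 to 0.42. Whether it also binds CPT1B transcripts was not tested.

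The binding proteins varied more between pigs than between lines. IGFBP5, which in muscle is made by differentiating myoblasts, had the largest spread of the 9 genes by their tested probes. Its level was 1.45 to 2.35 in low_RFI pigs, with a median of 2.11, and 1.61 to 2.79 in high_RFI pigs, with a median of 2.04. The 2 highest pigs, at 2.79 and 2.75, were both high_RFI pigs of the run 55 to 62, and the groups overlapped below that. The log2 difference was -0.12 ± 0.20 (SE), with a fold interval of 0.692 to 1.23, and the within-line SD of 0.402 exceeded that of 74.3% of kept probes.

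IGFBP6, a binding protein that prefers IGF2, spread nearly as far. Its level was 4.51 to 5.50 in low_RFI pigs, with a median of 5.12, and 4.31 to 5.44 in high_RFI pigs, with a median of 4.9998. The lines overlapped and the log2 difference was 0.14 ± 0.19 (SE). Its 3 probes gave 0.12 to 0.14 (log2) and correlated at r of 0.93 to 0.99 across pigs, so the spread between pigs was seen by each of them.

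IGFBP4, which binds IGF until the protease PAPPA cuts it, was 0.44 to 1.14 in low_RFI pigs, with a median of 0.86, and 0.32 to 1.04 in high_RFI pigs, with a median of 0.50. The low_RFI pig was higher in 41 of the 56 pairings, though the ranges overlapped. The log2 difference was 0.19 ± 0.14 (SE, adjusted p = 0.870, limma). Its second, dimmer probe gave 0.18 ± 0.13 (-0.069 with normexp correction) and correlated with the first at 0.904.

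IGFBP2 and IGFBP3 showed no line difference beyond their spread. IGFBP2 was 0.80 to 1.70 in low_RFI pigs, with a median of 1.01, and 0.93 to 1.62 in high_RFI pigs, with a median of 1.11; its difference was -0.037 ± 0.140 (log2, SE). Its highest values, 1.70 in a low_RFI pig and 1.62 in a high_RFI pig, fell 1 in each line. IGFBP3, the main carrier of IGF in blood, was -3.46 to -2.86 in low_RFI pigs, with a median of -3.28, and -3.48 to -2.73 in high_RFI pigs, with a median of -3.37. Of the 8 high_RFI pigs, 7 lay between -3.48 and -3.31 and 1 at -2.73. The log2 difference of IGFBP3 was 0.078 ± 0.117 (SE).

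Across pigs, IGF2 and IGFBP5 went together when the probes of a gene were averaged, but no pair passed with 1 probe per gene. With 1 probe per gene and line means removed, none of the 36 pairs of members passed (smallest adjusted p = 0.515, permutation test with 100000 resamples), and IGF2 and IGFBP5 had an r of 0.459. Averaging the kept probes of each gene was added after the IGF2 probes were seen to differ. IGF2 and IGFBP5 then had r = 0.878 (n = 15 pigs, permutation p = 3e-05, adjusted p = 0.00108 over 36 pairs) and Spearman's rho = 0.879 (permutation p = 5e-05), and no other pair passed. With 1 probe per gene and normexp correction, the pairs that passed were IGF1R with IGFBP3 (r = 0.937) and IGF2 with IGFBP3 (r = -0.747), not this one. Without that correction their r was 0.492 and 0.128. The IGF1R and IGFBP3 probes are dim, at 26.7 to 47.1 and 33.2 to 66.4 intensity units, which is the size of the normexp offset of 50. The part of that offset in these r was not tested. The 5 dimmer IGF2 probes each gave an r with IGFBP5 of 0.78 to 0.91.

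The relation had the same sign in each subset and setting named here. For the mean of the 6 IGF2 probes, r was 0.857 in low_RFI pigs and 0.893 in high_RFI pigs. It was 0.723 within pigs 1 to 8 and 0.834 within pigs 55 to 62, and 0.794 without the 2 pigs farthest from the IGF2 median. Leaving out each pig in turn gave 0.85 to 0.92, and normexp correction, quantile normalization, and removal of run or slide means gave 0.87 to 0.89. The pair most related with 1 probe per gene, IGF2 and IGFBP4 (r = -0.58, adjusted p = 0.515, permutation test), had an r of -0.32 with the mean of their probes and -0.035 with quantile normalization.

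**Figure D3:**
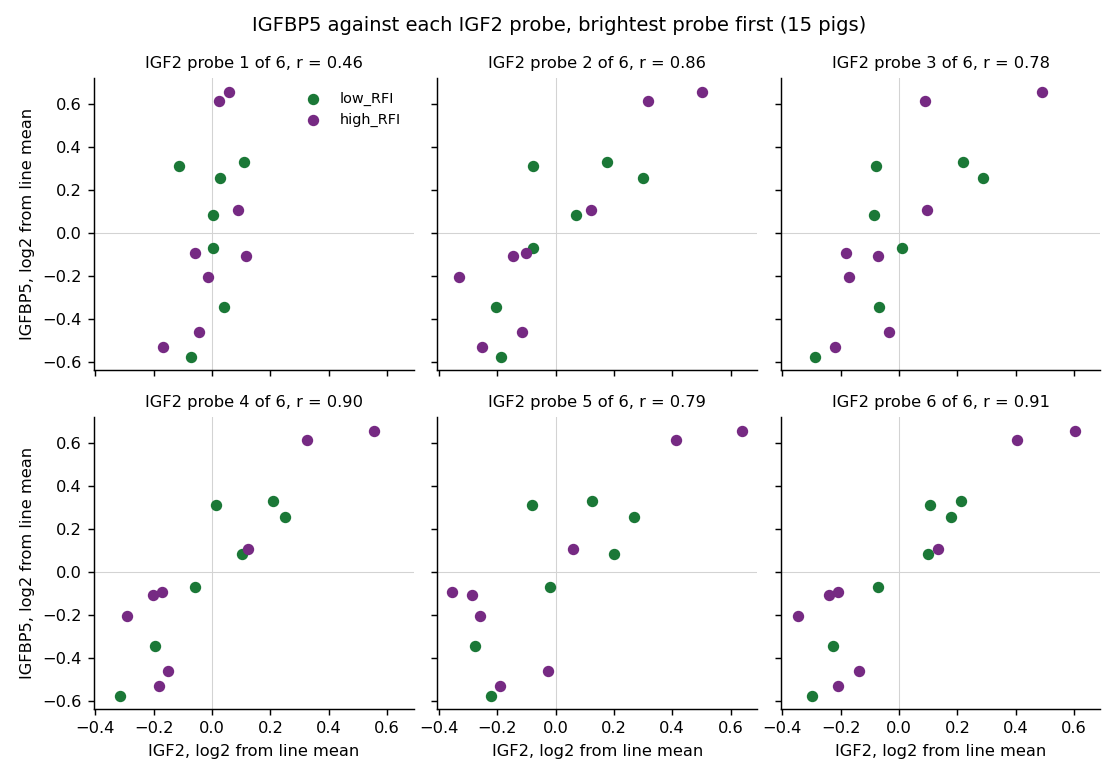
IGFBP5 level (vertical, log2 from the line's mean) against each of the 6 IGF2 probes (horizontal, log2 from the line's mean), brightest probe first; each point is 1 of 7 low_RFI or 8 high_RFI pigs. The brightest IGF2 probe hardly moves along its axis (r = 0.46), while the other 5 rise with IGFBP5 (r from 0.78 to 0.91).

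On average IGF2 (mean of probes) and IGFBP5 were higher in low_RFI within pigs 1 to 8 and lower within pigs 55 to 62. Their correlation above comes from the same pigs, so this is not a separate finding. The mean level of the 6 IGF2 probes was 6.55 to 6.92 in the 4 low_RFI pigs and 6.28 to 6.43 in the 4 high_RFI pigs of the run 1 to 8, where the lines did not overlap. This comparison of 4 with 4 pigs was made after the values were seen; by the mean of their probes 2 of the 9 members, IGF2 and IGFBP3, separated the lines in that run, as did 4.93% of all genes. By the brightest IGF2 probe alone the lines overlapped in the run 1 to 8, with low_RFI pig 1 at 8.80 and high_RFI pig 2 at 8.84. In the run 55 to 62 the lines overlapped in the mean of the 6 IGF2 probes. It was 6.47 to 6.67 in the 3 low_RFI pigs and 6.34 to 6.99 in the 4 high_RFI pigs. For IGFBP5 the log2 difference, low_RFI minus high_RFI, was 0.29 within pigs 1 to 8 and -0.55 within pigs 55 to 62, and for IGFBP3 it was 0.33 and -0.22. For the brightest IGF2 probe alone the change of the line difference between runs was -0.16 (log2, adjusted p = 0.972 over probes, limma). That change was -0.51 for IGF2 (mean of probes), -0.84 for IGFBP5 and -0.54 for IGFBP3 (log2). Limma's adjusted p for it was 0.764 for each of the 3 genes. Of 4169 genes, 0 passed that test by the mean of their probes; 243 (5.83%) were under 0.05 unadjusted, and these 3 were the ones among the 9 members.

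**Figure D4:**
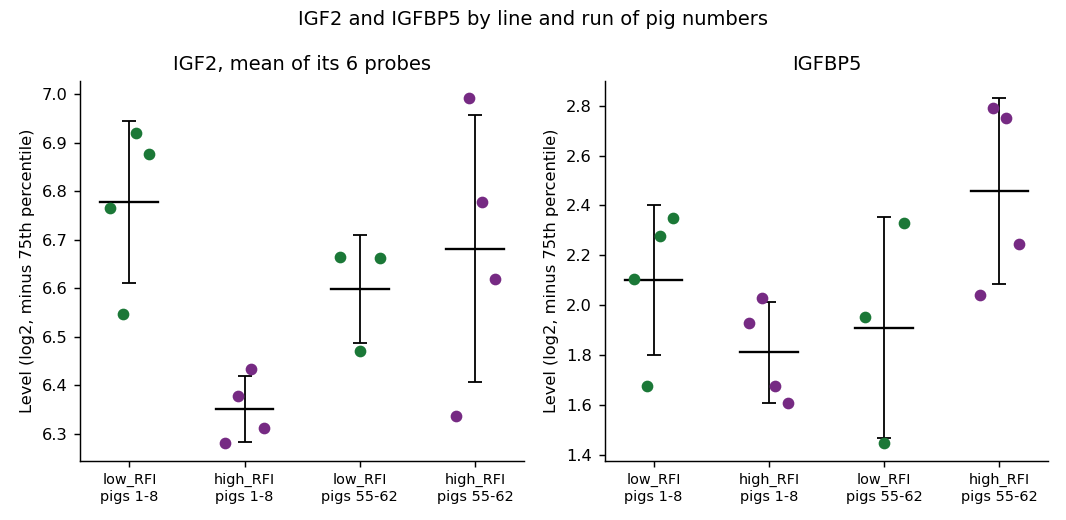
Level (log2, minus the array's 75th percentile) of IGF2, as the mean of its 6 probes, and of IGFBP5, by line and run of pig numbers. Points are pigs (4, 4, 3 and 4 from left to right), with mean and SD; in pigs 1 to 8 all 4 low_RFI pigs lie above the 4 high_RFI pigs for IGF2 (a comparison chosen after the values were seen, in which 4.93% of all genes separate), and in pigs 55 to 62 the lines overlap for both genes.

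The members were next set beside markers of cell types that muscle holds and of hepatocytes, which it does not. Over 63 pairs of a member and a marker list, 1 passed: IGFBP6 against the mean of ALB and APOA1, genes typical of hepatocytes (r = -0.698, adjusted p = 0.030, permutation test; Spearman's rho = -0.721, adjusted p = 0.15). Between lines ALB differed by -1.43 ± 0.73 and APOA1 by 0.50 ± 0.17 (log2, SE), so the 2 genes went opposite ways. Within lines ALB varied more (SD 1.54, against 0.34 for APOA1), and TTR, also listed, had no kept probe. That list stood at -1.02 to -0.48 in low_RFI pigs and at -1.08 to 2.26 in high_RFI pigs, with 1 pig, high_RFI pig 6, at the top. The pair did not pass with normexp correction (adjusted p = 0.13), quantile normalization (0.14) or slide means removed (0.080, permutation tests). It also did not pass in 9 of 15 fits that left out 1 pig (permutation tests). The r was -0.66 without that pig (adjusted p = 0.23, permutation test), -0.59 without the 2 pigs of most extreme IGFBP6, and -0.689 and -0.840 within pigs 1 to 8 and 55 to 62. The same pig had the highest IGFBP5 level and the highest mean IGF2 level, and without it the line differences of the 9 members remained uncalled.

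IGF1 had an r of 0.726 with the adipocyte list, here ADIPOQ, LEP, FABP4 and AQP7, which did not pass (adjusted p = 0.078, permutation test). Spearman's rho was 0.700 (adjusted p = 0.15, permutation test). Over 6 alternatives its r ran from 0.514 to 0.705 and none passed (adjusted p of 0.080 or more, permutation test). Of 15 fits that left out 1 pig, 2 passed. The r was 0.904 within pigs 1 to 8 and 0.071 within pigs 55 to 62, and 0.507 without the 2 pigs farthest from the IGF1 median. The 4 genes averaged -0.44 to 0.88 in low_RFI pigs and -0.015 to 0.99 in high_RFI pigs. Between lines ADIPOQ differed by -0.31 ± 0.49, LEP by -0.043 ± 0.123 and AQP7 by -1.14 ± 0.31 (log2, SE). FABP4 differed by 0.086 ± 0.167, the direction of IGF1. The part of adipocytes in the IGF1 levels was not tested. The macrophage list, here CD163 and CD14, had an r of 0.623 with IGF1 and 0.624 with IGFBP2 (adjusted p = 0.22 for each, permutation test; Spearman's rho 0.650 and 0.668, adjusted p = 0.15). Over 6 alternatives the r with IGF1 ran from 0.027 to 0.639, and none passed (adjusted p of 0.14 or more, permutation test). The pair with IGFBP2 passed in 1 of the 6, with run means removed (r = 0.779, adjusted p = 0.038, permutation test). Its r fell as low as 0.274 in the others (adjusted p up to 0.51, permutation test). That list stood at -0.11 to 0.73 in low_RFI pigs and 0.081 to 1.504 in high_RFI pigs. IGFBP5 had an r of 0.563 with the satellite cell list, here MYOD1 and MYOG (adjusted p = 0.38, permutation test). Their mean was 0.49 to 1.21 in low_RFI pigs and 0.93 to 1.34 in high_RFI pigs, and the part of these cells in the IGFBP5 levels was not tested.

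The wider IGF pathway gave no calls between lines either. Of 12 listed genes for the availability of IGF, 8 were on the array and tested, with 4 point estimates on each side of 0 and 0 called and 2 under 0.05 unadjusted (median log2 difference -0.0054, against 0.015 over all genes). The most extreme was STC2, an inhibitor of the protease PAPPA, a dim probe at -5.17 to -3.83 in low_RFI pigs and -6.998 to -4.42 in high_RFI pigs (log2 difference 0.76 ± 0.31, adjusted p = 0.657, limma). With normexp correction its difference was -0.046. IGFBP7, a low-affinity relative of the binding proteins, differed by 0.17 ± 0.08, CTSD, a lysosomal protease, by -0.20 ± 0.10, and PAPPA by -0.071 ± 0.133 (log2, SE).

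Of 14 listed genes that control IGF expression, 7 were tested, 4 with point estimates above 0 and 3 below, and 0 were called, with 2 under 0.05 unadjusted (median 0.075). SOCS3, a feedback inhibitor of cytokine receptors, was -1.71 to 1.11 in low_RFI pigs and -0.57 to 1.73 in high_RFI pigs (log2 difference -0.997 ± 0.435, adjusted p = 0.686, limma). JAK2, the kinase of the growth hormone receptor, was -1.81 to -0.75 in low_RFI pigs and -2.05 to -1.54 in high_RFI pigs (log2 difference 0.37 ± 0.15, adjusted p = 0.656). DLK1, an imprinted growth regulator, differed by 0.22 ± 0.13 (-0.018 with normexp correction) and SOCS2, an inhibitor of growth hormone signalling, by -0.22 ± 0.22.

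Of 18 listed genes for signalling next to the receptor, 8 were tested, 4 on each side of 0 and 0 called, with 1 under 0.05 unadjusted (median -0.00098). RACK1, a ribosomal scaffold that binds IGF1R, was 7.34 to 7.67 in low_RFI pigs and 7.06 to 7.45 in high_RFI pigs. The low_RFI pig was higher in 53 of 56 pairings (log2 difference 0.20 ± 0.07, adjusted p = 0.575, limma). GRB10, an inhibitory adaptor of the insulin and IGF1 receptors, differed by -0.23 ± 0.14, PTPN1, a phosphatase of the insulin receptor, by -0.026 ± 0.083, and the kinase AKT1 by -0.019 ± 0.096.

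For each member's tested probe, the 2 genes of highest r among 4109 named genes were taken, as a description. The r was over the 15 pigs with line means removed. They describe that 1 probe, with which the other probes of IGF1, IGF2 and IGF2R correlated at -0.12 to 0.59. For the tested IGF2 probe they were RPS28 (r = 0.910), a ribosomal protein, and PRMT1 (0.829). For IGF1R they were C9 (0.905) and CADM3 (0.864), and for IGF1 ADGRE5 (0.827) and PIK3R5 (0.746). IGFBP5 was most like CAPN6 (0.811) and PREPL (0.794), IGFBP6 like RBL1 (0.832) and SLC39A9 (0.831), and IGFBP2 like KCNIP1 (0.841) and CPEB1 (0.812). IGFBP4 was most like CLTC (0.795) and PALM2 (0.781), IGFBP3 like BTG1 (0.754) and CCL26 (0.751), and IGF2R like APOD (0.793) and GPX3 (0.778). Each is 1 of the 2 highest of 4109 values over 15 arrays that share a scanner and sit on 4 slides.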

How the data were processed

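Total RNA of 15 pigs was hybridised to 1-colour Agilent arrays, 1 pig per array. Per the file headers, the scanner's intensity values come from Feature Extraction 10.7.3.1 and are already background-subtracted; the deposited log2 values (29364 rows, R 2.10.0 per the submitters' processing notes) is that signal on the log2 scale, centred on the array median of its rows, with a largest difference of 4.93e-08, and served as an alternative. The deposited other flags, per the file headers, mark spots well above background or non-uniform. Non-uniform spots and controls were left out, and spots of a probe were averaged. Levels are log2 processed signals less the 75th percentile of their array. Kept probes were well above background on at least 7 of 15 arrays with at least 4 values per line. Names came from the files' symbols and accessions and RefSeq: 10720 probes had 1 symbol and 32883 did not.

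Lines were compared as low_RFI minus high_RFI with limma 3.58.1 (lmFit, eBayes) in R 4.3.3 (statmod 1.5.0 and version 1.17.8 of data.table), two-sided, with Benjamini-Hochberg adjustment over probes or genes. A gene was represented by its kept probe of highest mean level. Correlations used levels with line means removed and 100000 permutations, with fewer permutations in the fits that left out 1 pig. Alternatives covered background correction (normexp with an offset of 50), normalization, filters, blocks, the model, probe choice and left-out pigs. Every member was named; from each pathway list, up to 4 genes of smallest p. The members and lists were chosen with earlier results of these data known. The number of arrays limits the precision. Replicate numbers 1 to 7 occur in both lines, but the labels do not say that they pair pigs.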

Additional observations from a re-analysis of the deposited data

Results flagged for a closer look

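In 50 groups of pigs (25 kept IGF probes in 2 lines), 4 had a pig whose gap to its nearest neighbour was above Dixon's 95% critical value, and chance alone flags about 1 in 20 groups. The IGFBP3 probe was at -2.73 in high_RFI pig 5, against -3.31 in the next highest pig of that line. The IGF2 probe A_72_P303139 was at 7.59 in high_RFI pig 6, against 7.19 in the next highest. The IGF1 probe A_72_P185381 was at -1.57 in low_RFI pig 2, against -0.84 in the next lowest, and at -0.32 in high_RFI pig 7, against -1.03 in the next highest. The IGF1 probe used for the gene stood apart in neither pig.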

How the results depend on the processing

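The line difference stayed uncalled for all 9 genes under each of 14 alternatives and 15 left-out pigs (adjusted p of 0.594 or more, limma). The sign changed in 9 of these 261 values. With normexp correction the log2 difference was -0.11 for IGF1R, 0.0064 for IGF2R, 0.0092 for IGFBP2 and -0.064 for IGFBP3, and with slide as a fixed block it was 0.0037 for IGFBP2. Left-out pigs gave -0.13 to 0.028 for IGFBP2 and -0.076 to 0.0015 for IGF2R; the cause was not tested. Of the 12 named pathway genes, 0 were called under the same settings (adjusted p of 0.382 or more, limma; STC2 has no value with the filter at 12 arrays). Their sign changed in 8 of 347 values: STC2 -0.046 and DLK1 -0.018 with normexp correction, and, without each pig, PAPPA (-0.12 to 0.028), PTPN1 (-0.059 to 0.0080) and AKT1 (-0.087 to 0.026). The tested IGF1 probe kept its direction, at 0.15 to 0.25 under the alternatives that use it and 0.17 to 0.27 without each pig. The mean of the kept IGF1 probes gave 0.30. It includes A_72_P306168, which passed the filter mainly through low_RFI, and is given as a description only.

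Over all genes, 0 were called with normexp correction, median scaling, the deposited log2 table, slide or run as a fixed block and the replicate block, and 2 with quantile normalization, array weights and the mean of a gene's probes. Over all probes 1 was called with no filter on dim probes. Left-out pigs gave 0 to 3 genes and 0 to 2 probes. The labels do not say that replicate numbers pair pigs. Same-numbered pigs had an r over 0.1 in 5 of 7 pairs, and 1 of 7 low_RFI pigs correlated best with its own number. Same-numbered pigs also share a run of pig numbers, as does each low_RFI pig with its best partner. The replicate block called 0 genes and 0 probes.

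Pairs of members passing numbered 2 with normexp correction (IGF1R with IGFBP3, r = 0.937, and IGF2 with IGFBP3, r = -0.747). The IGF1R and IGFBP3 probes are dim, of the size of the normexp offset of 50. With the mean of probes 1 pair passed, and left-out pigs gave 0. Pairs with marker lists numbered 0 with normexp correction, quantile normalization or slide means removed, 2 with run means removed, and 0 to 2 without each pig; IGFBP6 with ALB and APOA1 ran from -0.75 to -0.66 without each pig. The SD of the brightest IGF2 probe was 0.187 with normexp correction. The IGF1 probe A_72_P306168 was well above background on only 7 arrays, which limits what its signal shows.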
